A study of Mus musculus with 4 samples.

Results

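Complement proteins and the fractalkine pair are the molecular tags and signals that microglia use when they remove synapses, and 8 genes of this kind were followed here in mouse brain: C1qa, C1qb, C1qc, C3, C4b, Itgam, Cx3cr1 and Cx3cl1. They were chosen by symbol, through the RefSeq accession of each array probe. All 8 were found, on 11 of 41174 probes, among 18350 genes with a symbol on the array, and all 8 passed the filter on dim probes and were tested with the 14329 named genes that passed. The tissue held the thalamus and the hypothalamus of mice at postnatal day 14. Dark-reared pups were born to dams moved 1 to 4 days before delivery into a cage wrapped in black plastic, and were tended under dim red light until sampling. Control pups lived in standard cages with 12 hours of light and 12 hours of darkness. No strain, genotype or sex is given in the labels. Each group had 2 samples labelled as biological replicates, each on its own one-colour (Cy3) Agilent array, and the number of animals in a sample is not stated.

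As background, C1q is built from 3 chains and binds to synapses, which starts the classical cascade through C4 and C2 to C3. Fragments of C3 left on the synapse are recognised by complement receptor 3 of microglia, whose alpha chain is encoded by Itgam. Fractalkine, made by neurons from Cx3cl1, signals to its receptor Cx3cr1, which in the brain is found on microglia. In the visual thalamus this system is known for trimming retinal inputs in early postnatal life.

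Levels are given on the log2 scale after subtraction of each array's 75th percentile, unless called processed signals, which are the scanner software's background-subtracted intensities in arbitrary units. Between 65.9% and 73.3% of probes were well above background on an array, and no spot was saturated. The smallest p of an exact two-sided permutation test with 2 samples a group is 0.333, so groups were compared with limma across 21427 genes. None had a Benjamini-Hochberg adjusted p under 0.05 in limma (0%), and 267 had an unadjusted p under 0.05 (1.25%). Groups did not overlap in 19.1% of genes. Dark-reared 2 and control 2 shared slide 3, and the other samples each had a slide of their own. Samples differed in makeup within groups and between them. The mean of 10 thalamus markers stood 1.19 below the 4-array mean in dark-reared 1 and 1.20 above it in control 1, 9 oligodendrocyte markers stood 1.60 below it in dark-reared 2, and 7 choroid plexus markers stood 2.20 below it in control 2. By group means, all tested thalamus (10), hypothalamus (10) and oligodendrocyte (9) markers were lower after dark rearing, at median differences of -0.79, -0.95 and -0.75. Within slide 3 the thalamus and hypothalamus medians had the opposite sign, 0.98 and 0.68, and the oligodendrocyte median was -1.41. All 7 choroid plexus markers were higher, at a median of 1.28, and of 2.44 within slide 3. None of these markers passed the adjusted threshold. Makeup and dark rearing thus cannot be told apart. Xist, the RNA of the inactive X chromosome of females, was at 3.42, -5.81, 3.79 and -6.48 (dark-reared 1 and 2, then control 1 and 2). Ddx3y, a gene of the Y chromosome, was at -0.32, 1.07, -6.54 and 1.18. By the brightest probes dark-reared 1 had both RNAs well above background. Control 1 had Xist alone, and dark-reared 2 and control 2 had Ddx3y alone. The samples thus differed in these RNAs within groups and between them, so sex and dark rearing cannot be told apart either. As these are bulk samples, fewer cells of a type and less RNA per cell cannot be told apart.

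None of the 8 genes differed between dark-reared and control mice beyond the spread between samples. By limma 0 of 8 had an adjusted p under 0.05, 0 of 8 had an unadjusted p under 0.05, and the groups overlapped for every one of the 8, where 9.53% of all genes were higher and 9.57% lower in dark-reared samples without overlap. The median difference of the 8 was 0.15, against -0.01 over all genes tested, 6 being higher and 2 lower after dark rearing. The lowest values gathered on 1 array: 6 of the 8 were lowest in control 1, where 25.8% of all genes had their lowest value. Within the shared slide the median of the 8 had the opposite sign, -0.19.

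**Figure D1:**
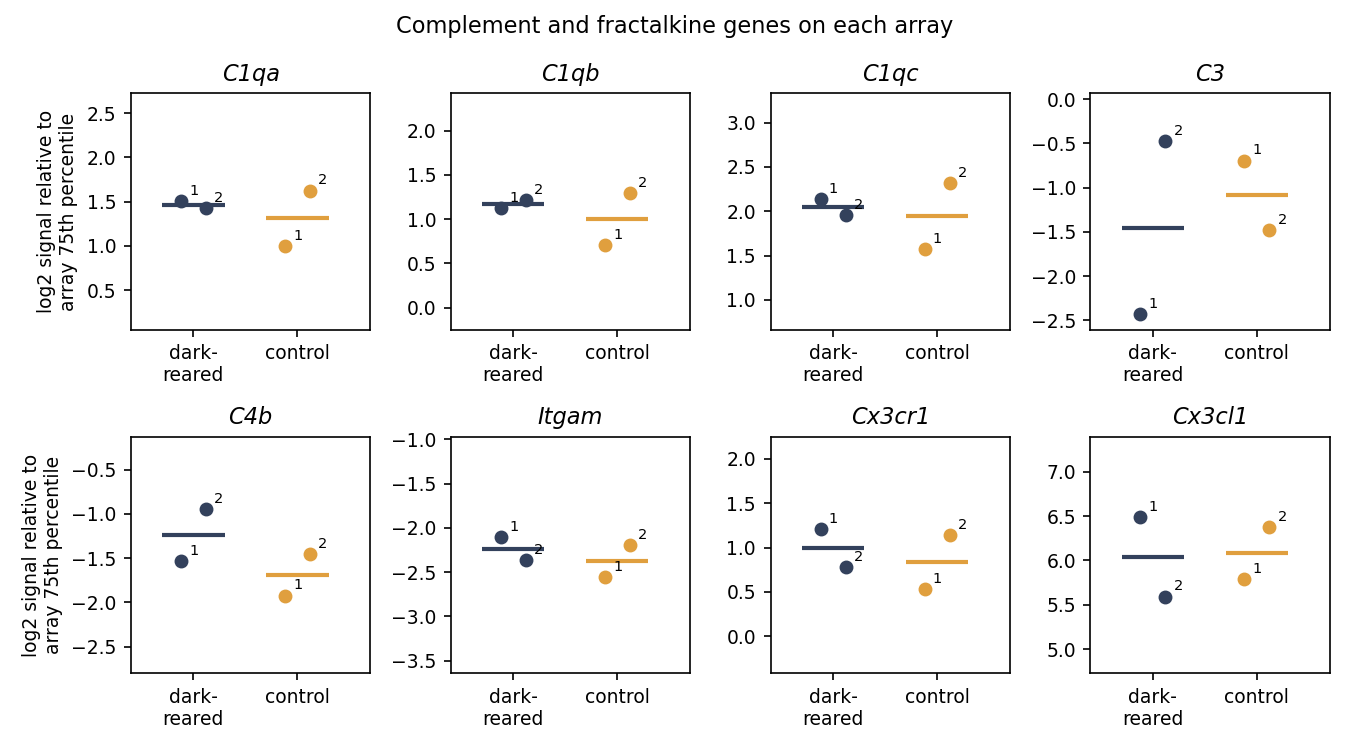
Log2 signal relative to the array's 75th percentile for each of the 8 genes, with 1 point per array (numbered by replicate) and a bar at the group mean of 2. Every panel spans the same log2 range, and the points of the groups overlap in each, with C3 spread most widely (from -2.43 in dark-reared 1 to -0.48 in dark-reared 2).

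The 3 chains of C1q, the recognition molecule of the classical pathway, moved almost as a single gene across the 4 arrays. C1qa (NM_007572), the A chain, read 1.50 and 1.43 on the log2 scale (dark-reared 1 and 2) against 1.00 and 1.63 (control 1 and 2). C1qb (NM_009777), the B chain, had 1.12, 1.22, 0.71 and 1.29 in that order of arrays, used below wherever 4 values follow each other. C1qc (NM_007574), the C chain, had 2.14, 1.96, 1.57 and 2.31. For all 3, control 1 was lowest and control 2 highest, so the controls enclosed both dark-reared samples. This order of the extremes, control 1 lowest and control 2 highest, was found in 8.92% of all genes.

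The dark-reared samples lay close together for C1q, and the controls did not. Processed signals of C1qa were 2249 and 2080 after dark rearing, a 1.05-fold gap, and 1560 and 2357 in controls, a 1.55-fold gap. The corresponding gaps were 1.07-fold and 1.50-fold for C1qb and 1.13-fold and 1.67-fold for C1qc. The scanner software's error of each C1q signal is 0.14 on the log2 scale, and control 1 fell below the other arrays by more than that. This error is given for a signal on 1 array and is no measure of the technical spread between arrays or slides. Dark-reared 1, dark-reared 2 and control 2 stood within 0.20 of each other for C1qa.

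The group difference in C1q was small and its interval wide. The C1qa mean was 1.46 ± 0.05 (SD, n = 2) after dark rearing, against a control mean of 1.31 ± 0.44 (SD, n = 2). The difference of 0.15 had a limma standard error of 0.26, a 95% interval from -0.58 to 0.89 and an adjusted p of 1.00. C1qb differed by 0.17 (interval -0.54 to 0.88) and C1qc by 0.10 (interval -0.74 to 0.95), neither passing in limma. These intervals reach well to both sides of 0, so the test does not show that the groups were alike. The sign rested on control 1: without it the differences were -0.16 for C1qa, -0.12 for C1qb and -0.27 for C1qc. Within slide 3 they were -0.20, -0.08 and -0.36. Without control 2 they were 0.47, 0.46 and 0.47.

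C1qb, C1qc and C1qa follow each other directly on chromosome 4 in the RefSeq table (GRCm38.p6). As a measure of likeness, each gene's 4 log2 values were centred on their mean, and the root-mean-square distance between profiles was taken over the 4 arrays. The distance was 0.06 between C1qa and C1qc, 0.06 between C1qa and C1qb and 0.12 between C1qb and C1qc. The median distance from the mean C1q profile over 13528 named genes detected on all arrays was 0.29. The genes nearest to that mean were Fat3, a giant cadherin, at 0.015, Mis18a, a centromere protein, at 0.016, Hpcal4, a neuronal calcium sensor, at 0.018, Batf3, a transcription factor of dendritic cells, at 0.022 and Fcer1g, the common gamma chain of Fc receptors in microglia, at 0.026. With 4 arrays many unrelated genes come this close: 702 of the 13528 were within 0.15.

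Microglial marker genes shared the C1q order of arrays in part. Of 20 listed markers, 19 were tested and well above background on all arrays, and 12 had their lowest value in control 1, 7 in dark-reared 2 and 0 in the other arrays. Their mean deviation from the 4-array mean was 0.21, -0.16, -0.30 and 0.26. Their summed linear level, in units of the array's 75th percentile, was 52.6, 46.4, 38.6 and 57.7. Aif1, which encodes the microglial protein Iba1, had log2 values of 1.33, 1.43, 0.90 and 1.65, with the same extremes as C1q. Csf1r, the receptor that microglia need to survive, had 2.08, 1.60, 1.63 and 2.22, and P2ry12, a purine receptor of resting microglia, had 1.21, 0.39, 0.60 and 1.17. In both of these dark-reared 2 was lowest, where C1q was not.

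Between groups the microglial list was balanced, 12 genes being higher and 7 lower after dark rearing, at a median difference of 0.02 and of -0.43 within slide 3. By limma 0 of 19 passed the adjusted threshold. Cd53, a leukocyte tetraspanin, was the only one of the 19 whose groups did not overlap and the only one with an unadjusted p under 0.05, at a difference of 0.54. Over all genes these shares were 19.1% and 1.25%. The mean of the microglial markers moved with C1q in part, and the part of microglia content in the C1q values was not tested. Subtracting the mean of the 19 markers from C1q on each array left deviations of -0.11, 0.21, -0.09 and -0.0037. The range over the arrays fell from 0.65 to 0.32, and dark-reared 2 became the highest.

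**Figure D2:**
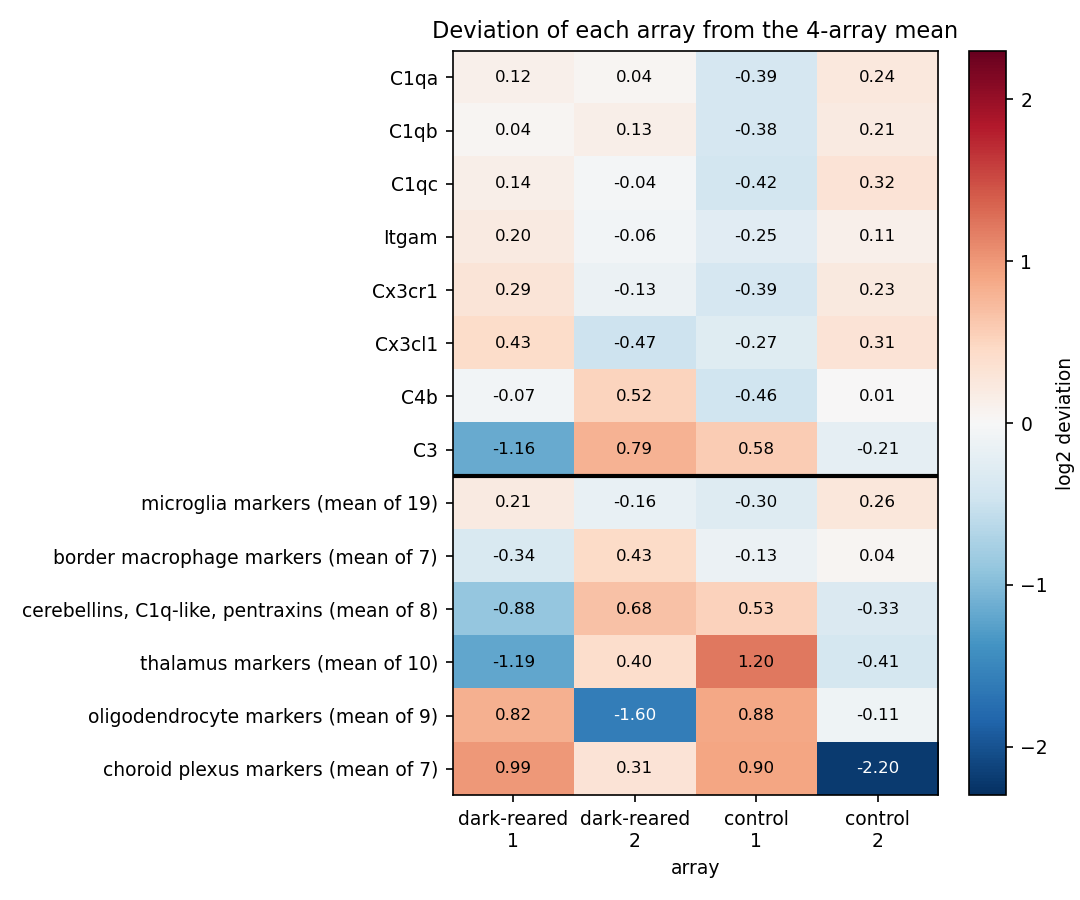
Log2 deviation of each array (columns) from the 4-array mean, for the 8 genes (above the line) and for the mean of 6 marker or gene lists (below it), with red above and blue below the mean. C1q, Itgam and Cx3cr1 share low values in control 1 with the microglia markers, while C3 is low in dark-reared 1, as are the thalamus markers.

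Itgam, the alpha chain of complement receptor 3, was dim but measured on every array by 2 probes. The brighter one (NM_001082960) read -2.11 and -2.37 on the log2 scale (dark-reared 1 and 2) against -2.56 and -2.19 (control 1 and 2). The second (NM_008401) had -2.01, -2.49, -2.59 and -2.22. Both probes placed the arrays in the same order, dark-reared 1 highest, then control 2, dark-reared 2 and control 1. The processed signals of both probes lay between 130 and 198, several times the dimmest signals called detected.

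The groups differed by 0.14 in Itgam (standard error 0.21, interval -0.45 to 0.73, adjusted p of 1.00 in limma) and by 0.15 with the second probe. The difference was -0.17 within slide 3, -0.04 without control 1 and -0.18 with the normexp background correction, so its sign was not stable. The distance of Itgam was 0.09 to the mean microglia profile and 0.10 to the mean profile of endothelium markers. The genes nearest to Itgam were Nup98, a nuclear pore gene, at 0.0018, and Slc6a6, the taurine transporter, at 0.0083. Itgb2, which encodes the beta chain of the same receptor, did not follow it: its log2 values were -2.34, -1.69, -2.28 and -1.74, with dark-reared 1 lowest where Itgam was highest. Itgb2 differed between groups by 0.0014.

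Cx3cr1, the fractalkine receptor, followed the microglial markers most closely of the 8, at a distance of 0.06 from their mean. Its brighter probe (NM_009987) read 1.21 and 0.78 on the log2 scale (dark-reared 1 and 2) against 0.53 and 1.14 (control 1 and 2). A dimmer probe of the same accession had -2.86, -3.43, -3.53 and -2.88, which is the same order of arrays. One sample of each group was thus high and the other low. The group difference was 0.16 (standard error 0.30, interval -0.68 to 1.00, adjusted p of 1.00 in limma) and 0.06 with the dimmer probe. It was -0.36 within slide 3, -0.05 without dark-reared 1 and -0.15 without control 1.

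After the mean of the microglial markers was subtracted, the range of Cx3cr1 over the arrays went from 0.68 to 0.17. Among the genes nearest to Cx3cr1 over the 4 arrays was Mertk, a receptor through which glia engulf cell debris and synapses, at a distance of 0.016. Mertk had log2 values of 0.29, -0.16, -0.36 and 0.22, with control 1 lowest and dark-reared 1 highest, as in Cx3cr1.

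Cx3cl1, the neuronal ligand, was far above background on every array and varied by 1.87-fold between arrays of the same group. Its processed signals were 71404, 37324, 43155 and 63437. On the log2 scale (NM_009142) these were 6.49, 5.59, 5.79 and 6.38. Each group held 1 high and 1 low sample, which is also how its receptor Cx3cr1 fell, though in Cx3cl1 the lowest was dark-reared 2 and in Cx3cr1 control 1. The mean of the 10 neuronal markers showed another order, deviating by -0.12, 0.07, 0.14 and -0.09. These markers were not alike: 5 were highest in control 1, 3 in dark-reared 2 and 1 in each of the other arrays. The distance of Cx3cl1 was 0.48 to their mean profile and 0.19 to the microglial one.

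The group difference in Cx3cl1 was -0.04 (standard error 0.41, interval -1.17 to 1.09, adjusted p of 1.00 in limma). Its sign turned with quantile normalization, at 0.04, and with the deposited values, at 0.04, and it was -0.78 within slide 3 and 0.41 without dark-reared 2. Among its nearest genes was Tacc1, a centrosomal coiled-coil gene, at a distance of 0.020. Adam17, a protease that sheds fractalkine from the membrane, had values of -0.03, -0.27, -0.12 and -0.23 and differed by 0.02 between groups.

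C3, the central component onto which all complement pathways converge, varied most between samples of the 8, and its largest gap lay within a group. Its log2 values (NM_009778) were -2.43 and -0.48 (dark-reared 1 and 2) against -0.69 and -1.48 (control 1 and 2). The dark-reared samples thus held both the lowest and the highest value, a 3.87-fold gap, and the controls lay between them. The range of 1.95 over the arrays was larger than that of 96.2% of the genes tested.

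The probe for C3 was printed 10 times on each array, so its spread between spots could be read directly. In dark-reared 1 the spots in use ran from 101 to 178 with a median of 150 (processed signal, 9 spots, 1 called an outlier by the scanner software). In dark-reared 2 they ran from 515 to 602 with a median of 550 (8 spots, 2 outliers), in control 1 from 456 to 507 with a median of 485 (10 spots), and in control 2 from 224 to 327 with a median of 278 (10 spots). No spot in use on one array overlapped in signal with a spot on another. The coefficient of variation between spots was between 3.47% and 14.6%, so the differences between samples were larger than the spread between spots. Spots of 1 array share an RNA sample and a hybridisation, so they hold no technical spread between arrays. They are not replicates of a condition.

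**Figure D3:**
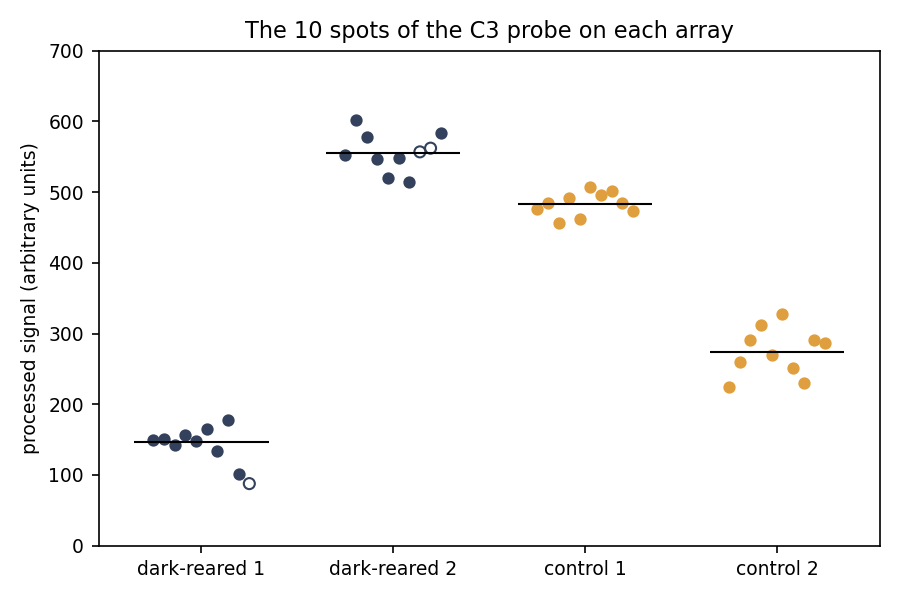
Processed signal in arbitrary units of each of the 10 spots of the C3 probe on the 4 arrays, with filled points for spots in use, open points for spots called outliers, and a line at the mean of the spots in use. The spots form separate bands, with means of 147 and 556 for dark-reared 1 and 2, and 483 and 274 for control 1 and 2.

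Over groups the C3 difference was -0.37, with a standard error of 0.76, an interval from -2.49 to 1.76 and an adjusted p of 1.00 in limma. It was 1.00 within slide 3, 0.61 without dark-reared 1, -1.34 without dark-reared 2 (unadjusted p of 0.0450, adjusted p of 1.00 in limma), 0.03 without control 1 and -0.76 without control 2. A second C3 probe was not detected above background by any of the arrays. C3 lay far from the microglial profile, at a distance of 0.97, and subtracting the microglial mean widened its range from 1.95 to 2.33. Its nearest genes were Tmem145, a membrane protein gene, at 0.066 and Cbln2, a secreted synapse organiser, at 0.071. Cbln2 carries a C1q-like domain and is not a complement protein, and its log2 values were -0.78, 1.27, 1.15 and 0.22.

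C3 was lowest in dark-reared 1, as were the means of the thalamus markers and of the meninges markers. C3 deviated from its 4-array mean by -1.16, 0.79, 0.58 and -0.21. The 10 thalamus markers had -1.19, 0.40, 1.20 and -0.41, with summed levels of 9.45, 31.6, 57.7 and 14.5, and 6 of the 10 were lowest in dark-reared 1. Of these markers 8 were highest in control 1, where C3 was highest in dark-reared 2. The 8 markers of meninges and fibroblasts had -0.35, 0.48, 0.10 and -0.23, with summed levels of 16.7, 24.9, 20.6 and 15.8, and 5 of the 8 were lowest in dark-reared 1. The distance of C3 was 0.39 to the mean thalamus profile and 0.49 to that of meninges and fibroblasts. All of these markers were well above background on every array, and the part of either in the C3 values was not tested.

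C4b, the C4 gene of the classical pathway, had the largest difference among the members that were higher in dark-reared mice, and it did not pass. Its log2 values (NM_009780) were -1.54 and -0.95 (dark-reared 1 and 2) against -1.92 and -1.45 (control 1 and 2). Dark-reared 2 was highest and control 1 lowest, and dark-reared 1 lay between the controls, so the groups overlapped. The difference was 0.45, a 1.36-fold excess, with a standard error of 0.30, an interval from -0.39 to 1.29 and an adjusted p of 1.00 in limma (0.213 before adjustment). It kept its direction in all 17 other settings, from 0.15 without dark-reared 2 to 0.74 without dark-reared 1, and was 0.51 within slide 3, 0.21 without control 1 and 0.68 without control 2. The normexp correction gave 0.19.

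The pattern of C4b was led by dark-reared 2 rather than by the microglial order. Its distance was 0.40 to the microglial mean and 0.22 to the mean of 7 markers of border macrophages, the macrophages of meninges and vessels. Those markers had mean deviations of -0.34, 0.43, -0.13 and 0.04, with 6 of 7 highest in dark-reared 2 and summed levels of 2.54, 3.70, 2.64 and 3.13. Mrc1, the mannose receptor of these cells, had -3.09, -1.84, -2.90 and -2.89. The neutrophil gene S100a8 was also highest in dark-reared 2, at -0.02 against -3.54, -3.31 and -4.34. It was not well above background in control 2 and passed the filter through the dark-reared samples alone. The part of such cells in the C4b values was not tested. Gfap, the intermediate filament of astrocytes, which are known to make C4, had values of 1.06, 1.91, 1.30 and 0.54, and the 10 astrocyte markers together deviated by at most 0.11 on any array. The nearest genes to C4b were Baiap2l2 at 0.030 and Sla, an adaptor of immune cell signalling, at 0.033.

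C4b has a close paralogue, C4a, a few genes away on chromosome 17. None of the arrays read the C4a probe (NM_011413) well above background, with processed signals from 12.9 to 21.6. Without the probe sequences it was not tested whether the C4b probe also binds C4a transcripts.

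Other complement genes gave no common direction. Of 22 further components, 21 had a named probe and 10 were tested, 4 higher and 6 lower after dark rearing, at a median difference of -0.02 and 0 of 10 past the adjusted threshold. Among them C2, which is cleaved by the same protease as C4, had -1.69, -0.63, -0.85 and -1.55, with dark-reared 1 lowest and dark-reared 2 highest as in C3. Cfp, or properdin, which stabilises the alternative pathway convertase, had 1.06, 1.02, 0.84 and 1.31, with the extremes of C1q. The C1q-associated proteases C1ra and C1s1 were dim, at differences of 0.80 and -0.06. C1ra was well above background on both dark-reared arrays and on 1 of the control arrays. It passed the filter through the dark-reared samples alone, which favoured a difference in this direction.

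C6, a part of the membrane attack complex, was the only 1 of 10 tested components whose groups did not overlap, against 19.1% of all genes. Neither dark-reared array read it well above background (-7.35 and -5.65), and it was at -4.37 and -4.16 in controls. On the main scaling it was at least 1.79-fold lower, with an adjusted p of 1.00 in limma. C6 passed the filter through the controls alone, so a difference in this direction was built into its selection, and its dark-reared values are at background. It was also the 1 of 10 components with an unadjusted p under 0.05, against 1.25% of all genes, and for the same reason that count supports nothing.

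Of 20 complement regulators, 14 were tested, 8 higher and 6 lower, with a median difference of 0.02 and 0 past the adjusted threshold. Groups did not overlap for 2 of the 14, where 19.1% of all genes had groups that did not overlap. Among these Cr1l, the membrane inhibitor of C3 on rodent cells, had -1.63, -1.59, -1.63 and -1.77, a difference of 0.09. Serping1, the C1 inhibitor, had -2.17, -1.26, -1.80 and -2.24, with dark-reared 2 highest as for C4b. Sez6, a neuronal protein with complement control domains, had 2.97, 2.20, 1.81 and 2.76.

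Of 10 receptors and binding partners, 7 were tested, 4 higher and 3 lower, with a median of 0.0014. C3ar1, the receptor of the C3a fragment, had -3.95, -3.57, -4.44 and -3.33, with the extremes of C1q, and differed by 0.12. Groups did not overlap for 1 of the 7, against 19.1% of all genes. This was Cr2, the complement receptor of B cells, which was dim and lower after dark rearing (-3.87, -4.12, -3.85 and -3.27). Its difference of -0.44 did not pass. In 6 of the 7 the highest value was in control 2, the array that was highest in 21.4% of all genes. Calr, or calreticulin, which binds C1q, had 3.72, 3.80, 3.73 and 3.97.

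Phagocytosis genes gave no common direction either. All 15 were tested, 9 higher and 6 lower, with a median of 0.03, 0 past the threshold and differences from -0.32 for Elmo1, an engulfment adaptor, to 0.18 for Tyro3, a receptor of the Mertk family. Groups did not overlap for 2 of the 15, against 19.1% of all genes: Elmo1, lower, and Mfge8, a bridge between dying cells and phagocytes, 0.18 higher. Of 15 signals between neurons and microglia 11 were tested, 5 higher and 6 lower, with a median of -0.0002. Il34, a neuronal ligand of Csf1r, had 2.21, 1.59, 1.66 and 2.13, which puts the high and the low arrays where Cx3cl1 had them. Il33, an alarmin of astrocytes known to promote synapse engulfment, was low in dark-reared 1 alone (-1.40, -0.07, -0.11 and -0.09). Cd200, a neuronal brake on microglia, had 1.72, 3.24, 2.66 and 2.35.

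Neuronal proteins that share the C1q domain or the pentraxin fold were measured as well. Of 11 such genes 8 were tested, 3 higher and 5 lower, with a median of -0.19 and 1.15 within slide 3. The largest differences belonged to Cbln4 (-0.93), Cbln1 (-0.67) and Nptx1 (0.58), none past the adjusted threshold. Cbln4 was not well above background in dark-reared 1, nor Nptx1 in control 2. Cbln4 passed the filter through the controls alone and Nptx1 through the dark-reared samples alone. The direction of these differences was thus favoured by the selection. The mean deviations of the list were -0.88, 0.68, 0.53 and -0.33, which lay closer to C3 than any other list did, at a distance of 0.16.

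**Figure D4:**
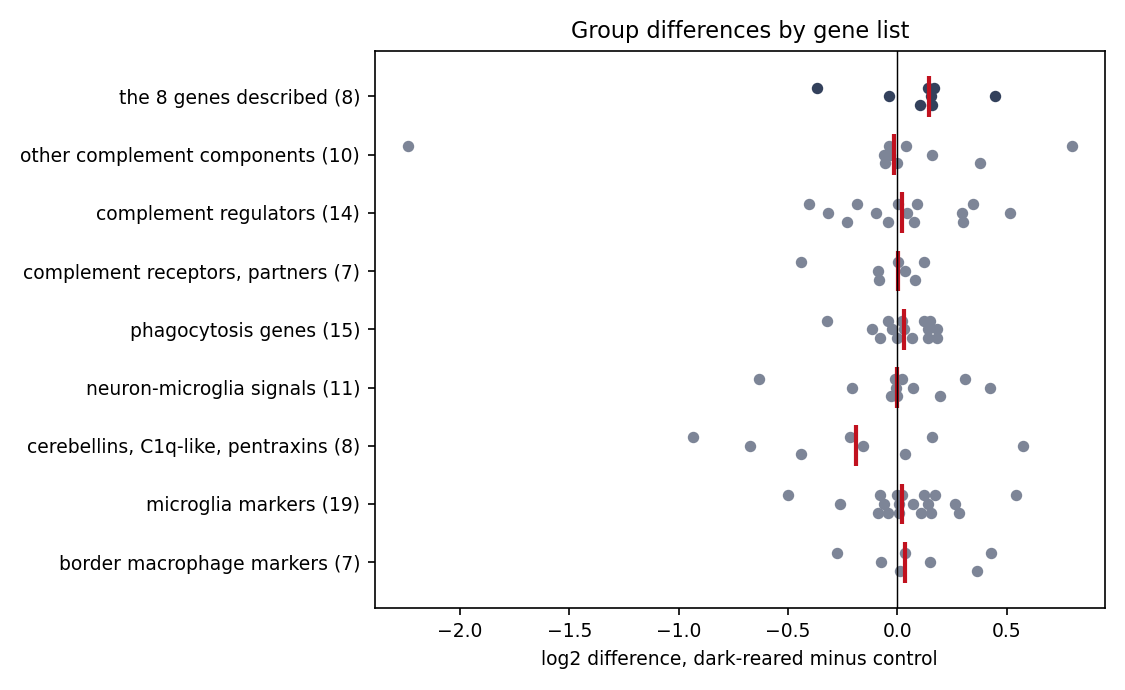
Log2 difference between dark-reared and control means for each tested gene (points), by list, with a red bar at the list's median and the number of tested genes in brackets. Medians lie between -0.19 and 0.15, and the point farthest left is C6, whose dark-reared signals were not well above background, so that its plotted value of -2.24 is no measured fold.

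Promoter sequences are shown for the members that were lowest in control 1 and had a promoter entry. The microglial profile does not set them apart: C1qb lay at a distance of 0.18 from it, and Cx3cl1, not shown, at 0.19. RefSeq (GRCm38.p6) gave a promoter for 6 of the 8 genes. C1qa and C4b had no entry. The 250 bases before the start in that table were searched on both strands for the core of the myeloid factor PU.1 (GAGGAAG), C/EBP (TTGCNNAA), GAS elements (TTCNNNGAA), AP-1 (TGANTCA), the TATA box (TATAAA), a REST half-site (CAGCACC) and longer patterns of NF-kB and MEF2. Each is written 5′ to 3′ on the strand of the gene, and capitals mark the PU.1 core or its reverse complement. The windows are chr4:136886201-136886450 (minus strand) for C1qb, chr4:136892915-136893164 (minus) for C1qc, chr7:128062390-128062639 (plus) for Itgam and chr9:120068297-120068546 (minus) for Cx3cr1.
C1qb: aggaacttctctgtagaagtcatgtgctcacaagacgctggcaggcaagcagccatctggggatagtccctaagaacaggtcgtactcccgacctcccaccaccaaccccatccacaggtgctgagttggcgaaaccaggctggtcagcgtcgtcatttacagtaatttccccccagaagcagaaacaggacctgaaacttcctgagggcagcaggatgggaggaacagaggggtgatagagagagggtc
C1qc: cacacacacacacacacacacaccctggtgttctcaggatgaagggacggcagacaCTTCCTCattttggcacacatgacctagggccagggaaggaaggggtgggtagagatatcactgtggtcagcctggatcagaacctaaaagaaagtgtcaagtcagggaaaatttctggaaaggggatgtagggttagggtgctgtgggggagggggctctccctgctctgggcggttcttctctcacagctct
Itgam: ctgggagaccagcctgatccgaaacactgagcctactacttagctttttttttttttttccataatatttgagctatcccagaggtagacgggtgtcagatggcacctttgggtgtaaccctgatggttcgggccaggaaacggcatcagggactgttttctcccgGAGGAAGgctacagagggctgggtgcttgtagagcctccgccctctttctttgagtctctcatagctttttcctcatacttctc
Cx3cr1: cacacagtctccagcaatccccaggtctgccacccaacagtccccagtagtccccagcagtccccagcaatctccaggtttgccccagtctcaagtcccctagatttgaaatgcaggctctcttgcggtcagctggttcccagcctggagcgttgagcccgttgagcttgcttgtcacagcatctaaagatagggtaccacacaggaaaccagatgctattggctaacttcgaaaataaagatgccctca

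The PU.1 core was present in C1qc at -194 to -188 from the start, as its reverse complement in the printed sequence, and in Itgam at -84 to -78 as written. It was also in Cx3cl1, the neuronal ligand, at -67 to -61, and in none of the windows of C1qb, Cx3cr1 and C3. It was held by 10.6% of the 32851 promoter windows of this length. The REST half-site was in C1qb and C1qc, and in 5.73% of all windows. The C/EBP motif was found in C3 alone, at -45 to -38, and in 9.56% of all windows. MEF2 was found in Cx3cr1 alone (3.20% of all windows), and the TATA box in Cx3cl1 alone, at -6 to -1 (12.4%). The loose NF-kB pattern was in 5 of the 6 windows and in 45.8% of all. GAS and AP-1 letters were in none of the 6, against 7.02% and 6.75% of all windows. These matches are letters in a window, with no measurement of binding.

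**Figure D5:**
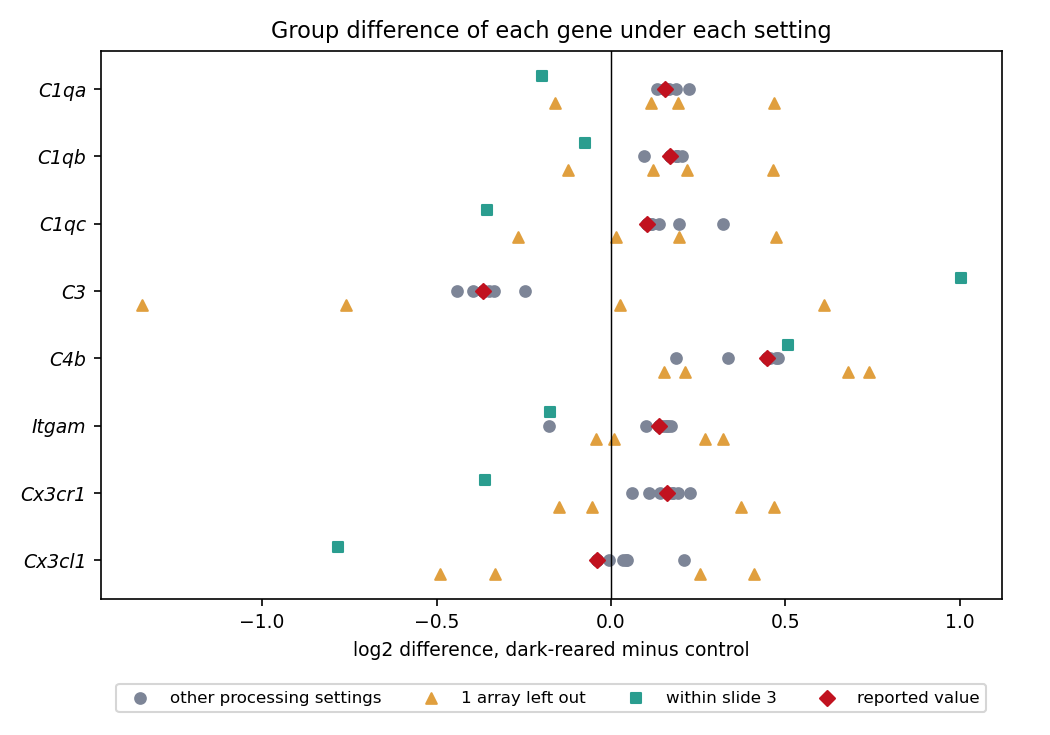
Log2 difference between dark-reared and control samples for each of the 8 genes under each way of processing, with a diamond for the reported value, circles for other settings, triangles with 1 array left out and a square for the difference within slide 3. C4b lies above 0 in every setting, and each of the other 7 crosses 0.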

How the data were processed

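Total RNA was hybridised to one-colour arrays. Per the file headers, the authors' spot intensities come from Feature Extraction 10.7.3.1 by Agilent (the submitters' processing notes say 10.7). The processed intensity is background-subtracted and detrended within 1 array. The deposited log2 values per probe had a median of 6.84 on every array. Their normalization is not stated, and they were used as an alternative.

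Outlier spots were left out, spots of a probe averaged, and the 75th percentile over the non-control probes of each array (764 to 794) subtracted on the log2 scale. A probe was kept where both arrays of a group read it well above background (28444 probes), and the brightest probe stood for a gene. RefSeq accessions gave 26918 probes a symbol. Probes without one were grouped by accession. The array annotation refers to mm9, so genes are placed only by neighbours and by RefSeq's promoter windows.

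limma 3.58.1 in R 4.3.3 was used (lmFit, eBayes, two-sided, Benjamini-Hochberg over 21427 genes). It was tested on simulated data for 2 against 2 over 21423 genes: of 50 genes changed by 1 on the log2 scale 0% passed, by 2 24%, by 3 52% and by 4 66%. Replicates are separate samples per the labels, and p-values measure the spread between these samples alone. Where a group was never well above background, the array's lowest well-detected signal replaced lower values, and the fold is a lower bound. Lists are described by counts and medians.

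The 8 genes and all lists were chosen with earlier results of these data known. Named genes were the 8, any tested complement or neuron to microglia gene, up to 4 genes with the largest difference of other lists, Csf1r, Aif1, P2ry12, C4a, Itgb2, C3ar1, Xist, and the nearest profiles; 3 genes that this rule picked are not reported here. Gfap, Mrc1, Mertk, S100a8 and Cd53 fall under the list rule or the nearest profiles. Same-numbered samples deviated from their group means with a correlation of -0.16 over genes, so the samples were not treated as paired.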

Additional observations from a re-analysis of the deposited data

How the results depend on the processing

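In 138 values of the 8 genes under other settings, 117 kept the direction of the reported difference, 21 did not, and 0 had an adjusted p under 0.05 in limma. The count of genes past the threshold was 0 in every setting with a test, crossed replicate numbers (added after the data were seen) included. With the replicate number as a block it was 0 too, C4b had an unadjusted p of 0.0989, and the block changed no call. With outlier spots kept, trend and robust moderation, other filters, or the mean of a gene's probes, no sign turned.

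Sign changes were as follows. Within slide 3, which stands for the slide as a block because that term leaves no residual degrees of freedom, the differences were -0.20 for C1qa, -0.076 for C1qb, -0.36 for C1qc, 1.00 for C3, -0.17 for Itgam and -0.36 for Cx3cr1. Cx3cl1 was 0.035 with quantile normalization, 0.21 with normexp, 0.045 with normexp and replaced outlying backgrounds, and 0.042 with the deposited values. Itgam was -0.18 with normexp, which moved the median of all genes to -0.12. With 1 array left out the ranges were -0.16 to 0.47 for C1qa, -0.12 to 0.46 for C1qb, -0.27 to 0.47 for C1qc, -1.34 to 0.61 for C3, -0.044 to 0.32 for Itgam, -0.15 to 0.47 for Cx3cr1 and -0.49 to 0.41 for Cx3cl1. The cause was not tested.

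List medians moved within slide 3, to 0.40 for other components, 0.16 for regulators, -0.22 for receptors and partners and -0.43 for microglia markers. With normexp they moved to -0.49 for other components and -0.24 for receptors and partners. These shifts were not tested against the spread between samples. With 1 array left out the regulators ran from -0.082 to 0.15. Genes with an unadjusted p under 0.05 numbered 267, against 160 with normexp, 795 with no filter, 153 with the filter on all 4 arrays and 329 to 1179 with 1 array left out. The 4 arrays limit the precision, and signals of Itgam, C3 and C4b were 3.50 to 17.9 times the local background.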
